A study of Mus musculus with 2 samples.

Results

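The genes described here are 36 genes that mark excitatory neurons of the cerebral cortex or single layers of it, out of 32531 genes listed in the count files. They were chosen by name, and all 36 had a row in both files. The RNA came from adult Gdnf-EGFP/Rpl10a animals (line ES2243), which carry the ribosomal protein RPL10A joined to a green fluorescent tag, driven by the regulatory sequences of Gdnf. Tagged ribosomes were pulled from homogenized cerebral cortex with antibodies against the tag (translating ribosome affinity purification, TRAP), and the bound RNA was sequenced. The series aims at pericytes, the mural cells of capillaries. It holds 2 libraries, IP1 and IP2, both immunopurified, untreated and of this line, so they form 1 group with no control. The sources used here do not say whether the libraries came from separate animals or pools. Their spread, and every p-value that rests on it, may be technical only.

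Excitatory neurons of the cortex release glutamate and lie in layers with different targets, and many extend their axons out of their own area. Neurons of the upper layers connect areas of the cortex and receive thalamic input, whereas many neurons of the deep layers send axons to the brainstem, spinal cord and thalamus. Transcription factors such as CUX2, RORB, FEZF2 and TBR1 set these identities during development, and many remain expressed in the adult layer. In this account the upper-layer genes are Cux1, Cux2, Rorb, Rspo1 and Pou3f2. The deep-layer genes, which include those of layer 6b next to the white matter, are Tbr1, Fezf2, Bcl11b, Foxp2, Tle4, Crym, Etv1, Cplx3, Nxph4, Pcp4, Tshz2 and Ldb2. A further 11 genes are general to excitatory neurons, and 8 are known from several layers.

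Members of the NEUROD family in this set encode basic helix-loop-helix transcription factors that bind short E-box motifs. The sequences 250 bases upstream of the start site were therefore searched on both strands for the hexamer CAGCTG, which is its own reverse complement, and separately for the hexamer CAGATG, which reads on the opposite strand as CATCTG. No match printed here overlaps another. RefSeq promoters (build GRCm38.p6, the assembly also called mm10) were given for 28 of the 36 genes, with 47 start sites. Either hexamer was present in 23.4% of these windows and in 25.5% of all 32851 RefSeq windows of the same length, so the share in these genes was close to that of promoters in general. Of the 16 windows that began at the outermost start of their gene, 4 held a hexamer. A selection of 2 of these is printed, and both touched no other annotated gene. Capitals mark the hexamer, and each sequence runs 5′ to 3′ towards its gene on the minus strand. The match lay 118 bases before the start of Neurod2 (chr11:98329646-98329895) and 208 bases before that of Nrgn (chr9:37552746-37552995).
Neurod2: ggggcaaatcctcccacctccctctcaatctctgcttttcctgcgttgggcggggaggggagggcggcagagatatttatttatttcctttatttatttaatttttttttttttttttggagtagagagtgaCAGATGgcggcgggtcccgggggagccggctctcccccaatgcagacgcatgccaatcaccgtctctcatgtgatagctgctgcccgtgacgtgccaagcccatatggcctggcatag
Nrgn: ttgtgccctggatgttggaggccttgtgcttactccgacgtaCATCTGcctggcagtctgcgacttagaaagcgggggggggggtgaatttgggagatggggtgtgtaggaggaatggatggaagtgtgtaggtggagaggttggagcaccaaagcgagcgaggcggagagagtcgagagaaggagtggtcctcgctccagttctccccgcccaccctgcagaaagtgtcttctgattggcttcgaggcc
A match is a run of letters and does not show that a factor binds there.

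Most of the 36 genes were well represented in the purified RNA. Of them, 29 (80.6%) reached 10 CPM (counts of the gene, scaled to a common total of gene counts) in both libraries, against 47.0% of the 19580 genes with at least 1 count. The median of the 36 was 46.2 CPM (IP1) and 43.9 CPM (IP2), where the 19580 genes had medians of 9.52 and 9.20 CPM. The 36 genes took 0.490% of all gene counts in IP1 and 0.447% in IP2. Camk2a and Mef2c alone held 45.2% of that share in IP1 and 43.4% in IP2. None of the 36 was without counts, and the lowest count was 58. CPM values are not divided by transcript length, so they give how many reads a gene contributed and do not order genes by transcript number. In bulk RNA, a lower level from fewer cells of a type and a lower level from less RNA per cell cannot be told apart.

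**Figure D1:**
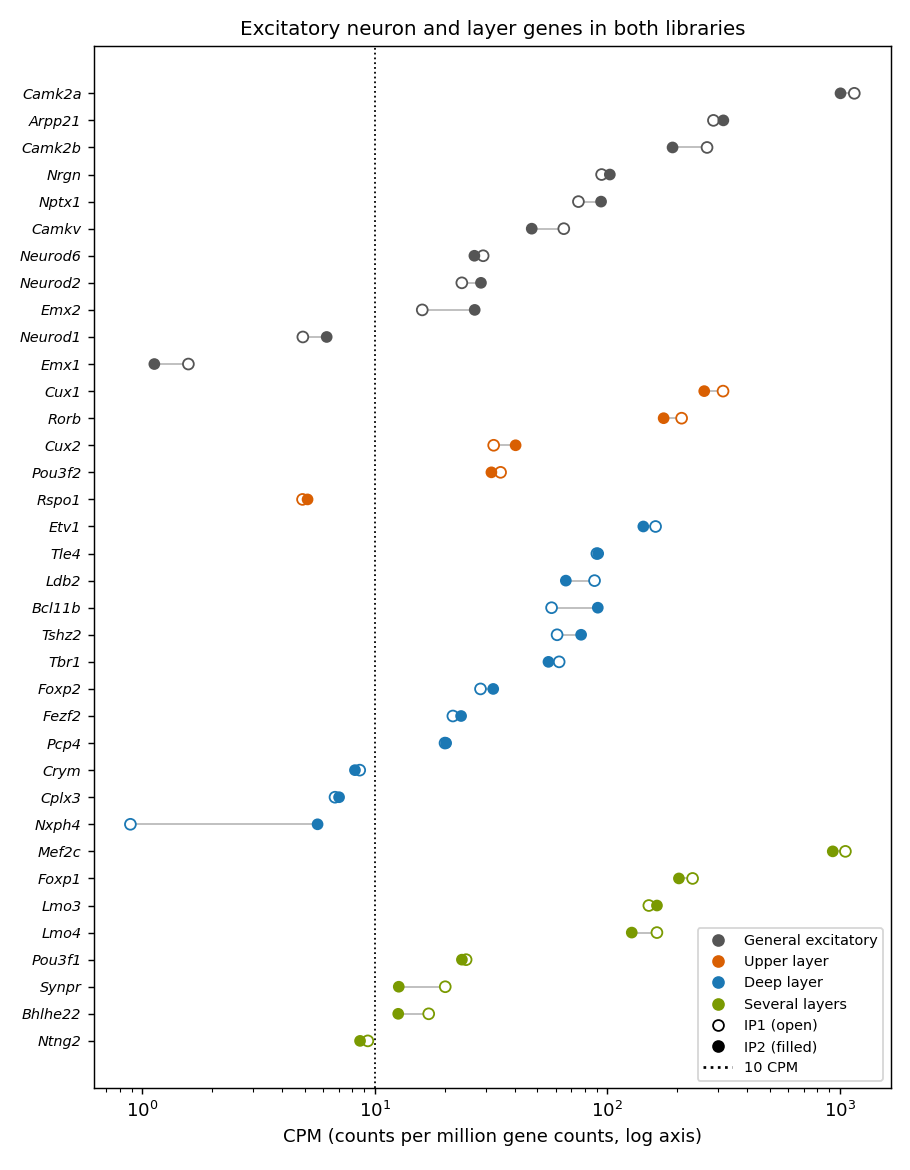
CPM of each of the 36 genes in IP1 (open circles) and IP2 (filled circles) on a log axis, coloured by group, with a dotted line at 10 CPM. The 2 circles of a gene lie close together for most genes, and Nxph4 shows the widest gap, between 0.89 CPM for IP1 and 5.68 CPM for IP2.

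Depth was 65200231 gene counts in IP1 and 72732502 in IP2, so 3 counts, the limit allowed by a count of 0, equal 0.046 and 0.041 CPM. Intervals and limits here cover counting error only, since PCR copies are not marked. Each gene was compared between the libraries with a two-sided exact binomial test on reads and Benjamini-Hochberg adjustment over 17306 genes. That test compares 2 libraries of 1 group and no conditions, and 75.5% of the genes passed it at an adjusted p under 0.05. Marker lists of other cells were also represented. The 9 mural markers summed to 6326 CPM (IP1) and 6212 CPM (IP2), and the 7 oligodendrocyte lineage markers to 3190 and 3554 CPM. The 10 inhibitory markers summed to 1166 and 1185 CPM, of which Gad2 alone gave 680 and 639 CPM. The 7 excitatory markers, 5 of which are among the 36 genes, summed to 1525 and 1370 CPM. Most of that excitatory sum came from Camk2a, at 1156 and 1008 CPM. Of these 7 excitatory markers, 6 reached 10 CPM in both libraries, and Emx1 did not. Rgs5 alone gave 4841 and 4061 CPM of the mural sum. The mural list had a median log2 ratio (IP2 over IP1) of 0.63, with 7 of 9 genes past counting error towards IP2 and 2 towards IP1, and 6 of the 7 reached a ratio of 1.5. Of all genes tested, 37.5% passed towards IP2 and 38.0% towards IP1, and 29.3% passed with a ratio of 1.5 on either side. Striatal, thalamic and hippocampal markers summed to between 114 and 214 CPM per list and library, and no marker of these lists had 0 counts in both libraries. Tcf7l2 alone gave 137 CPM (IP1) and 141 CPM (IP2) of the thalamic sum of 214 and 201 CPM. Prox1 gave 67.9 and 79.0 CPM of the hippocampal sum of 114 and 129 CPM. Which cells the counts of the 36 genes came from was not tested.

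The kinase and synaptic genes of excitatory neurons included the most counted member. Camk2a, the alpha subunit of calcium/calmodulin-dependent kinase II (chromosome 18, 60925307 to 60988152, mm10), was at 1156 CPM (IP1) and 1008 CPM (IP2), and ranked 47 of all genes by mean CPM. Camk2b, the beta subunit (chromosome 11, 5969629 to 6066357), was at 269 and 191 CPM. Camkv, a kinase-like protein without known kinase activity, was at 65.1 and 47.4 CPM. All of these kinase family genes were higher in IP1. The log2 ratio of IP2 over IP1 was -0.14 for Camk2a, -0.44 for Camk2b and -0.41 for Camkv, and each passed the exact binomial test by counting error without reaching a ratio of 1.5. Counts of Camk2b per count of Camk2a went from 0.233 in IP1 to 0.189 in IP2, a change in which gene length cancels.

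Nrgn, Nptx1 and Arpp21 were higher in IP2. Nrgn, neurogranin, a calmodulin-binding protein of dendritic spines, was at 94.6 CPM (IP1) and 103 CPM (IP2). Nptx1, a secreted pentraxin that gathers glutamate receptors at synapses, was at 75.2 and 94.1 CPM. Arpp21, a phosphoprotein regulated by cyclic AMP, was at 286 and 316 CPM. Their log2 ratios of IP2 over IP1 were 0.17, 0.38 and 0.19, again past counting error and under 1.5-fold. The span of Arpp21, introns included, is overlapped over 16.9% of its length by other annotated genes. How many of its reads this touches was not tested.

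The forebrain transcription factor genes of the general group had lower counts. Neurod6, which marks postmitotic excitatory neurons, was at 29.3 CPM (IP1) and 26.8 CPM (IP2), a difference within counting error (log2 ratio -0.07, 95% interval -0.16 to 0.02). Neurod2 was at 23.7 and 28.6 CPM and Neurod1, best known from immature and dentate granule neurons, at 4.91 and 6.21 CPM. Both were past counting error towards IP2, with log2 ratios of 0.33 and 0.39. Emx1 and Emx2 encode homeobox proteins of the dorsal forebrain. Emx1 (chromosome 6, 85187931 to 85204463) was the member with the fewest counts over both libraries, 103 in IP1 and 82 in IP2 (1.58 and 1.13 CPM). It did not pass the exact binomial test (adjusted p = 0.064).
Emx2 (chromosome 19, 59458690 to 59465357) was at 16.0 CPM (IP1) and 26.9 CPM (IP2). It was 1.74-fold higher in IP2 (log2 ratio 0.80, 95% counting interval 0.69 to 0.91). Emx2 is also known from astrocytes. All 6 astrocyte markers were past counting error on the IP2 side, beside 37.5% of all genes tested. These markers summed to 215 CPM (IP1) and 411 CPM (IP2). Their part in the Emx2 difference was not tested.

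Among the upper-layer genes, Cux1 and Rorb gave most counts. Cux1, a homeodomain factor also expressed outside neurons (chromosome 5, 136248135 to 136567590), was at 315 CPM (IP1) and 261 CPM (IP2). Rorb, a nuclear receptor of layer 4 neurons (chromosome 19, 18930609 to 19111196), was at 209 and 175 CPM. Both were higher in IP1, with log2 ratios of -0.22 and -0.20.
Cux2, the paralogue with the tighter upper-layer pattern (chromosome 5, 121857962 to 122050415), was at 32.5 CPM (IP1) and 40.4 CPM (IP2). It leaned to IP2, with a log2 ratio of 0.37, opposite to Cux1. Cux2 counts per Cux1 count went from 0.103 to 0.154, 1.497 times higher in IP2. Pou3f2, a POU-domain factor, was at 34.8 and 31.8 CPM, and Rspo1, a secreted enhancer of Wnt signalling found in layer 4, at 4.89 and 5.14 CPM. Neither passed the exact binomial test (adjusted p = 0.088 and 0.32). Overlaps with other annotated genes cover 16.8% of the span of Cux1 and 14.1% of that of Cux2.

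The deep-layer genes with most counts were Etv1 and Tle4. Etv1, an ETS factor of layer 5 neurons (chromosome 12, 38780082 to 38870483), was at 161 CPM (IP1) and 143 CPM (IP2), a log2 ratio of -0.12. Tle4, a corepressor of layer 6 corticothalamic neurons, was at 90.3 and 91.4 CPM, so the libraries nearly coincided (log2 ratio 0.07). Ldb2, a LIM domain-binding cofactor, leaned to IP1 with 88.2 and 66.4 CPM (log2 ratio -0.36).
Tshz2, a zinc finger factor of layer 5 neurons, leaned to IP2 with 60.9 and 77.2 CPM (log2 ratio 0.40). Tbr1, the T-box factor of layer 6, was at 62.1 and 55.9 CPM. Foxp2, a forkhead factor of layer 6, was at 28.5 and 32.3 CPM. Fezf2, the zinc finger factor that specifies neurons projecting below the cortex (chromosome 14, 12338992 to 12346803), was at 21.7 and 23.5 CPM. These 3 differed by less than 1.5-fold, with log2 ratios of -0.10, 0.23 and 0.17.

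Bcl11b, also called Ctip2, acts downstream of Fezf2 in those projection neurons (chromosome 12, 107910403 to 108004145). It was at 57.6 CPM (IP1) and 91.1 CPM (IP2). It was 1.64-fold higher in IP2, with a log2 ratio of 0.71 (95% counting interval 0.66 to 0.77). Bcl11b counts per Fezf2 count went from 2.66 to 3.87. Bcl11b is also known from striatal projection neurons, whose 8 markers summed to 196 CPM (IP1) and 199 CPM (IP2). Of those markers 4 were past counting error on the IP2 side and 1 on the IP1 side. Of all genes tested, 37.5% and 38.0% were past it on these sides. The part of the striatal markers in the Bcl11b difference was not tested.

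Deep-layer genes of low counts included the layer 6b genes. Cplx3, a complexin of layer 6b neurons, was at 6.75 CPM (IP1) and 7.03 CPM (IP2). Pcp4, a small calmodulin regulator, was at 20.1 and 20.3 CPM, and Crym, a thyroid hormone-binding protein, at 8.62 and 8.22 CPM. None of these passed the exact binomial test, and the 95% counting intervals of their log2 ratios all lay between -0.18 and 0.30.
Nxph4, a secreted neurexophilin that binds neurexins (chromosome 10, 127525473 to 127534559), had 58 counts in IP1 and 413 in IP2, or 0.89 and 5.68 CPM. It was 6.57-fold higher in IP2 (log2 ratio 2.72, 95% counting interval 2.33 to 3.15). It was the single gene of the 36 that reached a ratio of 2 with an adjusted p under 0.05 in the exact binomial test, against 17.4% of all 17306 genes tested in either direction and 7.21% towards IP2. Nxph4 lay below 10 CPM in both libraries. Among the 9207 genes at 10 CPM or more in both, only 101 met these limits, and none of the 29 members at that level did. Nxph4 counts per Cplx3 count went from 0.132 to 0.808, so these genes of the same sublayer differed between the libraries by different amounts. With an assumed coefficient of variation of 0.2 between libraries, edgeR's exact test also passed Nxph4 (adjusted p = 7.15e-07) and no other member. That assumption is smaller than the common coefficient of variation of 0.407 estimated by edgeR over the genes tested.

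Of the genes known from several layers, Mef2c had the most counts. Mef2c, a MADS-box factor of neurons and also of vascular cells and microglia (chromosome 13, 83504017 to 83667079), was at 1058 CPM (IP1) and 934 CPM (IP2). Overlaps with other annotated genes cover 35.8% of its span. Microglial markers were few in counts, with a sum of 24.8 CPM (IP1) and 30.2 CPM (IP2) over 6 genes, and mural markers were abundant. Whether mural cells contributed Mef2c counts was not tested.
Foxp1, a forkhead factor, was at 233 and 203 CPM (log2 ratio -0.14). The LIM-only genes Lmo4 and Lmo3 lay on opposite sides, with log2 ratios of -0.31 and 0.17. Lmo4 was at 164 CPM (IP1) and 128 CPM (IP2), and Lmo3 at 151 and 164 CPM. Lmo4 counts per Lmo3 count went from 1.08 to 0.779. Pou3f1, a POU-domain factor, was at 24.7 and 23.7 CPM. Ntng2, a membrane-anchored netrin, was at 9.34 and 8.65 CPM, and neither of these passed the exact binomial test.
Bhlhe22, a basic helix-loop-helix factor, was at 17.1 CPM (IP1) and 12.6 CPM (IP2), a log2 ratio of -0.38. Synpr, the synaptic vesicle protein synaptoporin (chromosome 14, 13284780 to 13615469), was at 20.1 and 12.7 CPM. Synpr was 1.53-fold higher in IP1 (log2 ratio -0.61), the largest lean to IP1 among the 36. It is also known from interneurons. The inhibitory marker list was split, with 4 of 10 genes past counting error on each side. That was close to the share of all genes tested, 38.0% towards IP1 and 37.5% towards IP2. The part of this list in the Synpr difference was not tested.

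By their medians, upper-layer genes leaned slightly to IP1 and deep-layer genes slightly to IP2. As a log2 ratio (IP2 over IP1), the median stood at -0.08 for the 5 upper-layer genes and 0.09 for the 12 deep-layer genes, beside a median of -0.004 over all genes tested. Groups outside this split had medians larger in size, so leans of this size were not particular to layer genes. These medians were 0.17 for the 11 general genes, -0.13 for the 8 genes of several layers and 0.13 for the 10 inhibitory markers. The upper median is the value of Pou3f2, which did not pass the exact binomial test. In the upper group 2 of 5 passed the exact binomial test towards IP1 and 1 towards IP2. In the deep group 3 of 12 passed towards IP1 and 6 towards IP2, where 38.0% and 37.5% of all genes passed on these sides. Summed CPM of the upper-layer genes was 596 in IP1 and 514 in IP2, and that of the deep-layer genes 607 and 622. Upper-layer counts, most of them from Cux1 and Rorb, were thus 0.982 of deep-layer counts in IP1 and 0.825 in IP2. The ratio of the upper to the deep median CPM went the other way, from 0.808 in IP1 to 0.915 in IP2, so the direction rests on the summary used.
A list of further layer genes, chosen with earlier results of these data known, gave medians on the same sides. These genes were measured in the same 2 libraries, so the list is no independent repeat. The 10 further upper-layer genes had a median log2 ratio of -0.11, with 6 past counting error towards IP1 and 1 towards IP2. The 12 further deep-layer genes had a median of 0.15, with 2 towards IP1 and 7 towards IP2. Their summed ratio of upper to deep went from 1.62 in IP1 to 1.33 in IP2. By mean CPM of both libraries, the highest of the further upper-layer genes were Stard8 (292 and 256 CPM), Plcxd2 (136 and 128 CPM) and Lhx2 (84.6 and 83.8 CPM). By the same mean, the highest of the further deep-layer genes were Sox5 (190 and 186 CPM), Nr4a2 (53.5 and 78.01 CPM) and Deptor (48.3 and 46.6 CPM). With 2 libraries of 1 group, the difference between upper and deep layers has no test, and both groups included genes that went against the median.

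**Figure D2:**
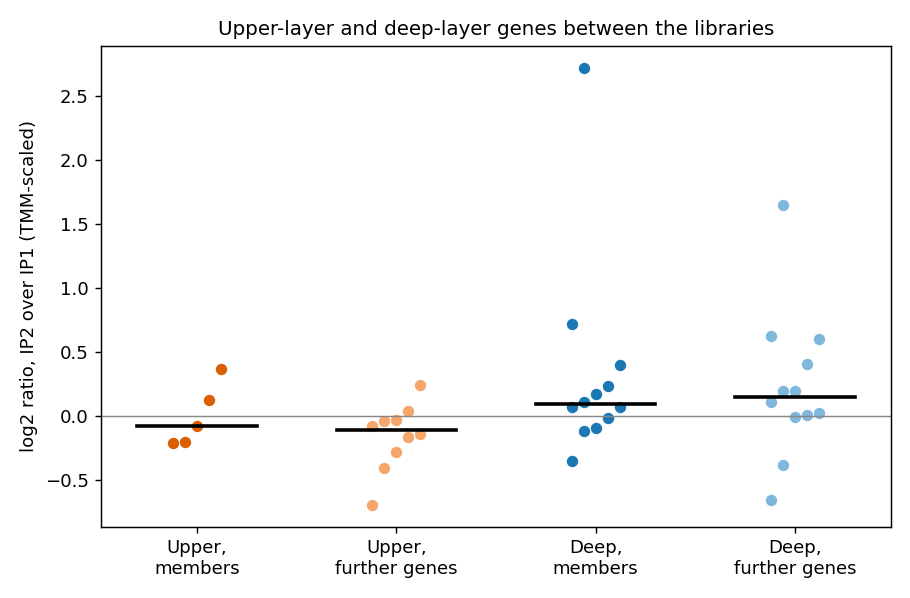
Log2 ratio of IP2 over IP1 (TMM-scaled) for each upper-layer and deep-layer gene of the set and for the further genes of each kind. Points are genes and black bars are medians, which lie at -0.08 and -0.11 for upper and at 0.09 and 0.15 for deep layers. The point at 2.72 is Nxph4.

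The counted level of upper-layer against deep-layer genes had no fixed order. The median was 34.8 CPM (IP1) and 40.4 CPM (IP2) for upper-layer genes and 43.1 and 44.1 CPM for deep-layer genes. The upper median was 0.815 of the deep median on the mean of both libraries. With the core genes alone (Cux1, Cux2 and Rorb against Fezf2, Bcl11b, Tbr1, Tle4 and Foxp2) it was 3.25 times the deep median. These values rest on which genes are in each group and on their transcript lengths, which were not used here.

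Taken gene by gene, the difference between libraries was about as wide for these genes as for others of like counts. Of the 36 genes, 27 passed the exact binomial test by counting error, 13 towards IP1 and 14 towards IP2. Of all 17306 genes tested, 75.5% passed it, 38.0% towards IP1 and 37.5% towards IP2. A ratio of at least 1.5 together with that test was reached by Nxph4, Emx2, Bcl11b and Synpr, against 29.3% of all genes tested. Among the 29 genes at 10 CPM or more in both libraries, 3 (10.3%) did so, beside 9.44% of the 9207 genes at that level. The median log2 ratio of the 36 was -0.01.

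**Figure D3:**
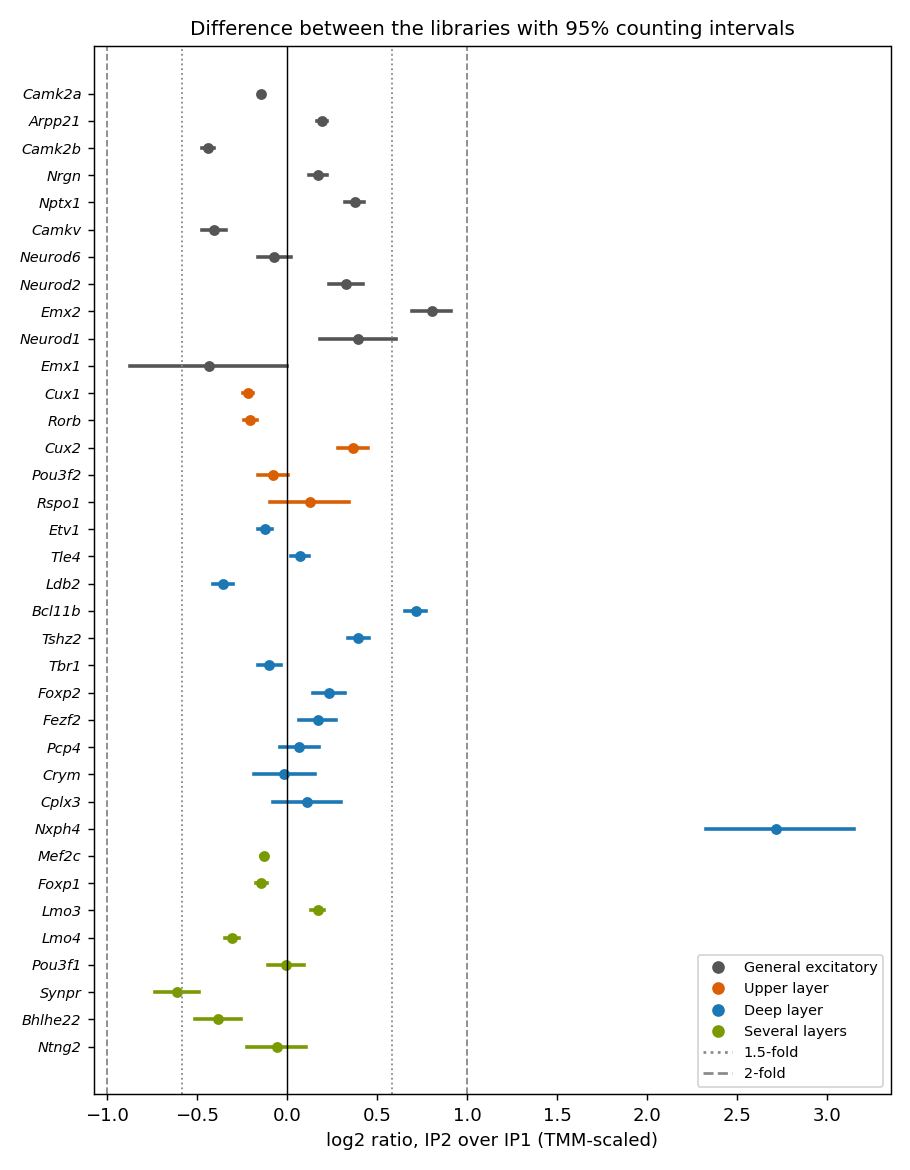
Log2 ratio of IP2 over IP1 (TMM-scaled) for the 36 genes with 95% exact binomial intervals, which hold counting error only. Dotted and dashed lines mark ratios of 1.5 and 2, and Nxph4 at 2.72 is the one gene past the dashed lines.

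**Figure D4:**
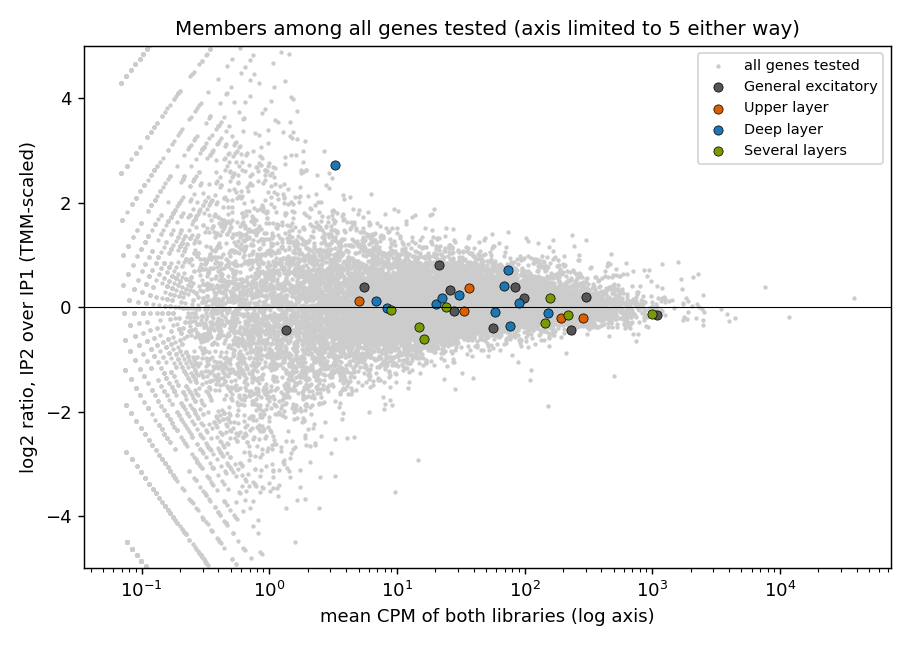
Log2 ratio of IP2 over IP1 against mean CPM (log axis) for 17306 genes tested (grey) and the 36 genes (coloured by group), with the vertical axis limited to 5 in each direction. The 36 genes lie within the grey cloud, and Nxph4, at a mean of 3.28 CPM, lies near its upper edge.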

How the data were processed

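Ribosome-bound RNA of mouse cerebral cortex was measured in 2 libraries. STAR 2.0.0e aligned the reads to mm10 and HTSeq counted them, per the submitters' processing notes. Annotation and strandedness are not given in the sources, so reads of antisense partners cannot be told apart. The deposited files hold raw counts per gene symbol, without normalization by the authors. Summary lines and a row named unknown (41.9% and 42.3% of listed reads) entered no library size or test. Reads aligned to several places (31.2% and 31.5%) were not assigned to genes.

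CPM was computed on total gene counts. Log2 ratios used TMM-scaled library sizes (edgeR 4.0.16) and a prior of 0.5 counts. The two-sided exact binomial test covered 17306 genes with a summed count of at least 10, adjusted by Benjamini-Hochberg; calls needed an adjusted p below 0.05 plus a ratio of 2 or more. The libraries were no copies of each other (chi-square of 88.9 per degree of freedom). Gene positions are from RefSeq GRCm38.p6, which held all 36 genes; 13 of them overlap another annotated gene. The members, layer groups, marker lists and named genes (all members, the 3 highest further genes of each layer kind) were chosen with earlier results of these data known. Pairs of genes set against each other, and Oprk1, Slc17a8, Slc17a7 and Cck, were chosen after their values were seen. DESeq2 1.42.0 gave alternative size factors. Other software was scipy 1.17.1, pandas 2.3.3, numpy 2.4.6, Python 3.11.15 and R 4.3.3.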

Additional observations from a re-analysis of the deposited data

How the results depend on the processing

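The upper median as a fraction of the deep median was 0.815. It was 3.25 with the core genes, 0.617 with the genes of several layers added, 1.63 with geometric means and 1.89 with the further genes. It was 5.26 without genes that overlap another gene, an alternative chosen after seeing the data. That setting left only Rorb and Pou3f2 in the upper group. Leaving out each library gave 0.808 to 0.915. The alternative per gene length was not run, because the table used gives genomic spans only. The count of genes at 10 CPM in both libraries was 29, and 26 to 32 at 20 and 5 CPM; of the 23 genes without an overlap it was 18. Leaving out either library or Rn45s gave 29. The count of members called different was 1, and 4 at a ratio of 1.5 and 27 with no ratio minimum, beside 3007, 5066 and 13068 of all genes. Other size factors, no minimum of counts and an assumed coefficient of variation of 0.2 kept the count of members at 1 and gave 2021 to 3273 for all genes. Each member's direction and call stayed the same in all 144 recomputed values of the log2 ratio. No paired analysis was possible because the libraries form 1 group, with no second group to pair with.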

Other observations

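Other genes outside the 36, from the further lists drawn up for excitatory neurons, were also counted, and the lists do not make them specific to those neurons. Slc17a7, the vesicular glutamate transporter of most cortical excitatory neurons, was at 94.8 CPM (IP1) and 101 CPM (IP2). Cck, a neuropeptide gene of excitatory and inhibitory cortical neurons, was at 136 and 149 CPM. Slc17a8, the third vesicular glutamate transporter, had 558 counts in IP1 and 2220 in IP2, or 8.56 and 30.5 CPM, a log2 ratio of IP2 over IP1 of 1.89. Oprk1, the kappa opioid receptor gene and 1 of the further deep-layer genes, had 106 and 358 counts, a log2 ratio of 1.65. Both were past the adjusted p and the ratio of 2 towards IP2 in the exact binomial test, as were 7.21% of all genes tested. Nxph4 shared that side, whereas Slc17a7 and Cplx3 differed by less than 1.5-fold. Slc17a8 and Oprk1 were picked after their values were seen, so their shared side with Nxph4 rests on that choice. They were the only 1 of 8 and the only 1 of 12 genes of their lists past these limits.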
